A study of Mus musculus with 29 samples.

Results

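Genes of MHC class I antigen presentation were examined across all samples of the series. The 10 members were H2-K1, H2-D1, B2m, Tap1, Tap2, Tapbp, Psmb8, Psmb9, Nlrc5 and Erap1, of 18193 genes measured. Each was found by its symbol in the platform annotation, and where a gene had several probe sets the brightest one on average was used. The series profiled TH-MYCN mice of strain 129X1/SvJ, in which a tyrosine hydroxylase promoter drives MYCN in the sympathoadrenal lineage and neuroblastoma, a cancer of sympathetic nerve precursors, arises. The compared genotypes were caspase-8 deficient and caspase-8 wild type, in the presence of the transgene throughout. Caspase-8 is the protease that death receptors activate to start apoptosis. There were 17 deficient and 7 wild type primary abdominal tumours, and 3 deficient and 2 wild type bone marrow samples, with 1 array each. The labels give no age, Casp8 allele or deleted part. They do not say that samples are separate animals either, and the spread that p-values rest on may therefore be technical in part.

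MHC class I molecules show peptides from inside a cell to CD8 T cells, and NK cells respond when they are missing. The proteasome cuts proteins into peptides, a transporter carries these into the endoplasmic reticulum, an aminopeptidase trims them, and a loading complex places them on a heavy chain paired with beta-2 microglobulin. Interferon gamma induces most of these genes together, and neuroblastoma cells are known for low class I levels.

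Promoter sequences are shown for 4 members because class I genes are known to share promoter elements, bound by the NLRC5 enhanceosome, by NF-kappaB and by interferon regulatory factors. RefSeq windows of assembly GRCm38.p6, 250 bases before to 50 bases after the annotated start, were given for 8 of the 10 members, all but Tap2 and Nlrc5. The H2-K1 window is chr17:34000298-34000597 on the minus strand, and those of H2-D1, B2m and Erap1 are chr17:35262844-35263143, chr2:122147437-122147736 and chr13:74639603-74639902 on the plus strand. Capitals mark matches to 2 patterns and to a pair of patterns, searched on both strands. A member of the pair standing alone is left in lower case, and each line reads 5′ to 3′ along the gene.
H2-K1: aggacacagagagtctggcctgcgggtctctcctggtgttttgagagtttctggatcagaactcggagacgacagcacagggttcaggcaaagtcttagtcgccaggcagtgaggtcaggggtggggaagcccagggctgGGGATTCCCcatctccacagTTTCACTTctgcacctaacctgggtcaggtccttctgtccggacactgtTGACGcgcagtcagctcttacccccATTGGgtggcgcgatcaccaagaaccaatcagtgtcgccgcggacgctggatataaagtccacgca
H2-D1: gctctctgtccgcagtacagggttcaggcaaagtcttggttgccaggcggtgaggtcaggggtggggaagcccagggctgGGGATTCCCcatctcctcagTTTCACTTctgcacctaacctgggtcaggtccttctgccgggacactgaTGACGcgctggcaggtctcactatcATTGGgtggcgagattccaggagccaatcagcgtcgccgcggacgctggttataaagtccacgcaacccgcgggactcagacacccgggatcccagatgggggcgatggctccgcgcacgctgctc
B2m: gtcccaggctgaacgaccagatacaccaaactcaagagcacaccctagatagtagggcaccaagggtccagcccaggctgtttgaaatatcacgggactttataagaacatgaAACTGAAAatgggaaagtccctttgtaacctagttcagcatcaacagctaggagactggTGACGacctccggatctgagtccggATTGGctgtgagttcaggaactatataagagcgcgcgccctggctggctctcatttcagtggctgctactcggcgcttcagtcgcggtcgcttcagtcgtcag
Erap1: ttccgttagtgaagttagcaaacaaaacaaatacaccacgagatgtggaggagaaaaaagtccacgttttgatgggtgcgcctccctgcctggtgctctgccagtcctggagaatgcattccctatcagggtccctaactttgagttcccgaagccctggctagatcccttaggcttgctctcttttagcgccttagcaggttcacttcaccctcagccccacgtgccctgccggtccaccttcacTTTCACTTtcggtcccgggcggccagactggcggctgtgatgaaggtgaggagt
In the order of the H2-K1 line, the capitals are GGGATTCCC (kappaB), the reverse strand of AANNGAAA (an interferon regulatory factor core), and the pair of TGACG (X2 box core) followed by ATTGG (Y box core) at 10 to 30 bases. The H2-D1 line has the same 4 in the same order, the B2m line has AANNGAAA on its own strand and then the pair, and the Erap1 line has only the reverse strand of AANNGAAA, across the start site.

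The pair TGACG followed by ATTGG stood exactly 20 bases apart in the windows of H2-K1, H2-D1 and B2m, the heavy chains and the light chain. That spacing occurred in 31 of 32544 distinct windows of all genes (0.095%), and any spacing of 10 to 30 bases in 243 (0.747%). The kappaB pattern was present in H2-K1 and H2-D1 and in 0.353% of all windows. AANNGAAA was present in the 4 windows shown and in 23.9% of all windows. The kappaB pattern, AANNGAAA and the pair were not found in the windows of Tap1, Tapbp, Psmb8 or Psmb9. A further pattern searched, TTCNNNGAA, was present in 1 of the 8 member windows, that of Psmb8, and in 8.33% of all windows. The H2-K1 and H2-D1 windows were identical at 206 of 228 aligned positions (90.4%). The windows of Tap1, on the plus strand, and Psmb9, on the minus strand, overlap by 275 bases, so both genes start from one shared stretch of chromosome 17. A match describes letters and not binding.

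Signals were RMA values on a log2 scale, on which 1 unit is a 2-fold difference, and array medians lay between 4.78 and 4.91. The tissue labels were checked against markers: the mean of 11 sympathoadrenal genes lay between 8.69 and 9.54 in tumours and between 4.24 and 4.403 in marrow, and that of 7 neutrophil genes between 3.43 and 5.51 in tumours and between 12.4 and 12.8 in marrow. Casp8 averaged 5.62 in deficient and 5.88 in wild type tumours, a difference of -0.26 (SE 0.20, limma adjusted p = 0.9997), and whether its probe set lies in the deleted part is not known, so this checks nothing about the labels. Of the tumours, wild type tumours 1 and 5 stood apart in the members: all 10 were higher in each of these samples than in every one of the other 22 tumours. Of all genes, 7.54% exceeded the other 22 tumours in wild type tumour 1, 4.42% in wild type tumour 5 and 1.32% in both. Results that rest on them are therefore given with and without them, an alternative chosen after the data were seen. Samples are numbered in a lower and a higher series of titles, and all marrow falls in the higher one, with 10 deficient and 4 wild type tumours, against 7 and 3 in the lower.

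**Figure D1:**
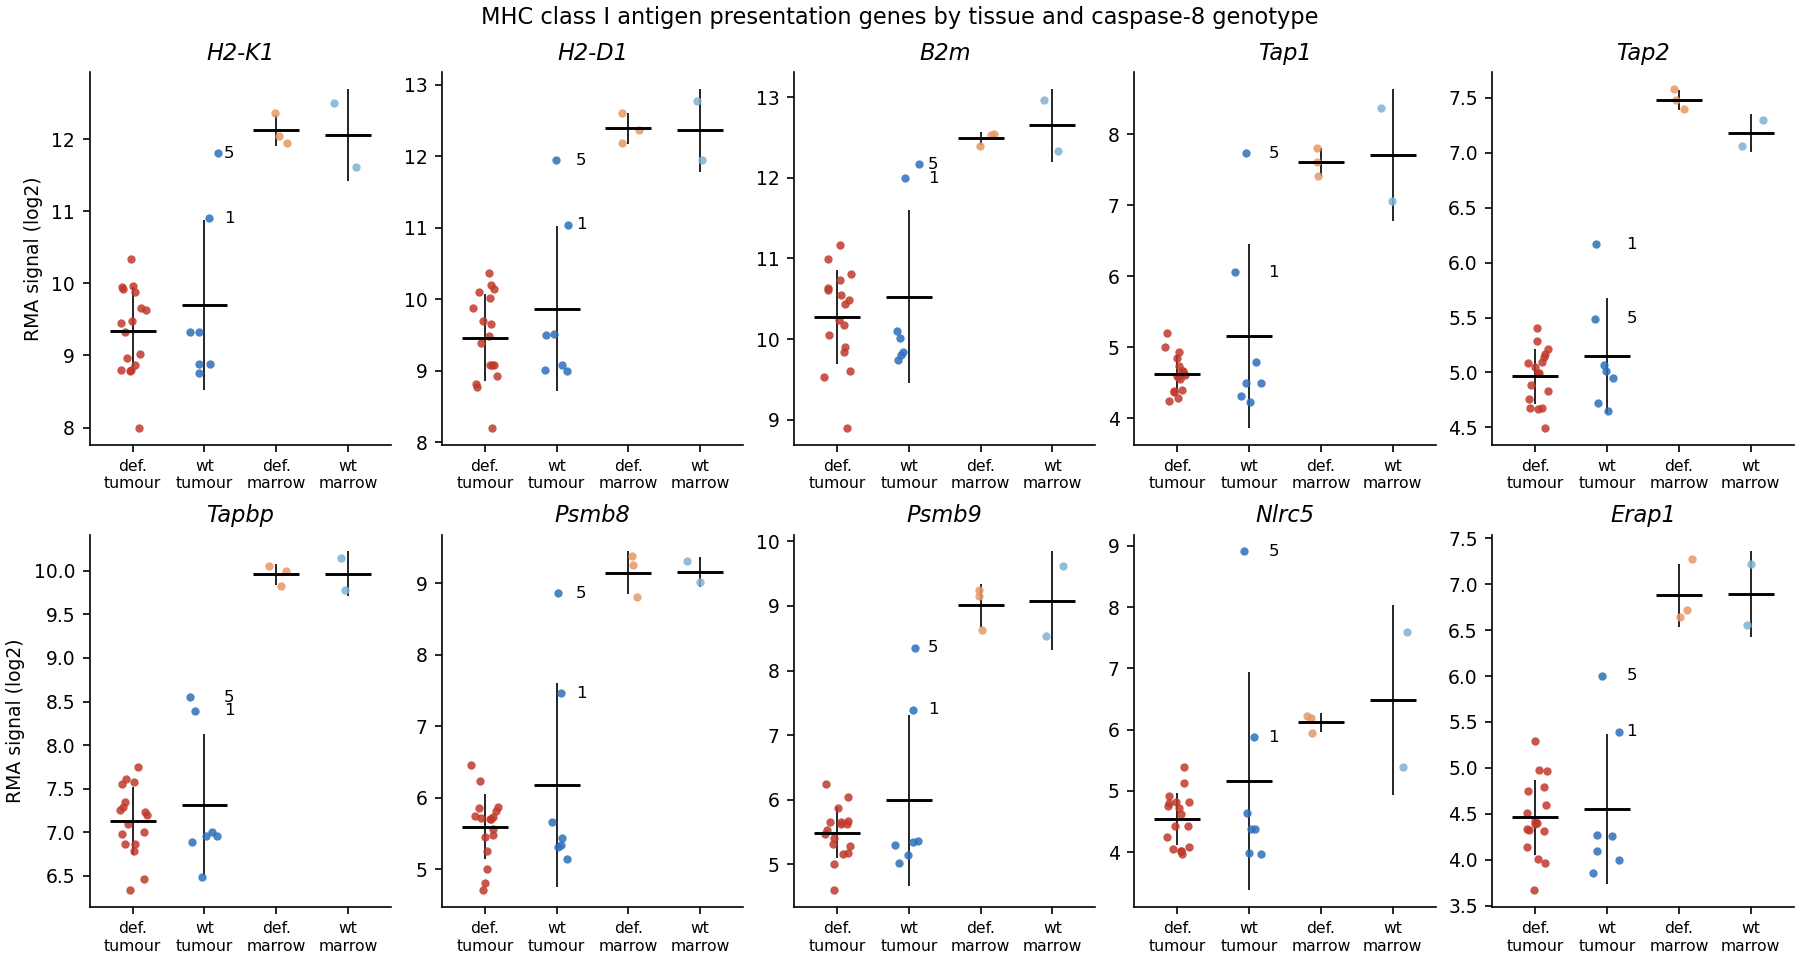
RMA signal (log2) of the 10 members in each sample, with 1 point per array. The panels run deficient tumour (n = 17), wild type tumour (n = 7), deficient marrow (n = 3) and wild type marrow (n = 2), with the group mean as a horizontal bar and 1 SD as a vertical line. The labels 1 and 5 mark wild type tumours 1 and 5, which lie above all other tumours in every panel, and all 10 tumour means lie below the marrow means.

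The class I heavy and light chains were lower in tumours than in marrow and did not differ by genotype beyond the spread between samples. Their signal was high in both tissues. Tumour means of H2-K1, H2-D1 and B2m exceeded those of 89.1%, 90.3% and 95.1% of all genes, and marrow means 99.3%, 99.5% and 99.6%. H2-K1 encodes a classical heavy chain, on chromosome 17. Its signal ran from 7.999 to 10.34 with a median of 9.45 in deficient tumours, and from 8.76 to 11.80 with a median of 9.33 in wild type tumours. In marrow it was 11.95, 12.05 and 12.37 in deficient and 11.61 and 12.51 in wild type samples. Wild type tumour 5, at 11.80, was the 1 tumour to reach the marrow range, and the 2 tumour genotypes overlapped. The tumour minus marrow difference was -2.57 (SE 0.37, limma adjusted p = 3.338e-07), a 5.94-fold lower signal. H2-D1, the other classical heavy chain, followed it closely. Its range was 8.20 to 10.37 (median 9.49) in deficient tumours and 8.99 to 11.94 (median 9.50) in wild type tumours. Marrow values were 12.18, 12.37 and 12.61 in deficient and 11.95 and 12.77 in wild type samples. The highest tumour, wild type tumour 5 at 11.94, lay just under the lowest marrow sample, and the difference was -2.71 (SE 0.36, limma adjusted p = 1.203e-07). B2m, on chromosome 2, encodes beta-2 microglobulin, the light chain that all class I heavy chains need to reach the surface. It spanned 8.90 to 11.17 (median 10.44) in deficient tumours and 9.74 to 12.17 (median 10.02) in wild type tumours. Deficient marrow had 12.39, 12.52 and 12.55 and wild type marrow 12.33 and 12.97. No tumour reached the marrow range, and the difference of -2.17 (SE 0.34, limma adjusted p = 1.584e-06) was a 4.51-fold lower signal. The second B2m probe set gave -2.25.

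Peptide transport and loading genes showed the same order of tissues. In tumours the mean signals of Tap1, 4.78, and Tap2, 5.02, were low, above those of 38.1% and 40.4% of all genes. Tap1 and Tap2 encode the subunits of the TAP transporter, and Tapbp encodes tapasin, which bridges the transporter to the empty heavy chain. Tap1 signal was 4.24 to 5.20 (median 4.61) in deficient tumours and 4.22 to 7.73 (median 4.50) in wild type tumours. It was 7.41, 7.81 and 7.61 in deficient marrow and 7.05 and 8.36 in wild type marrow. Wild type tumour 5 lay inside the marrow range and the other 23 tumours below it. The difference was -2.76 (SE 0.33, limma adjusted p = 1.464e-08), and -0.91 with the mean of the 4 Tap1 probe sets, of which the other 3 averaged 2.47 to 4.03 in tumours and 2.67 to 4.604 in marrow. Tap2 signal was 4.50 to 5.41 (median 5.00) in deficient tumours and 4.65 to 6.17 (median 5.02) in wild type tumours. It was 7.48, 7.40 and 7.58 in deficient marrow and 7.06 and 7.30 in wild type marrow. Every tumour lay below every marrow sample, the highest being wild type tumour 1, and the difference was -2.27 (SE 0.16, limma adjusted p = 1.453e-13). Tapbp ran from 6.34 to 7.75 (median 7.20) in deficient tumours and from 6.49 to 8.55 (median 6.95) in wild type tumours. Its marrow values were 9.997, 10.06 and 9.83 in deficient and 9.78 and 10.15 in wild type samples. The tissues did not overlap, and Tapbp differed by -2.74 (SE 0.24, limma adjusted p = 3.068e-11), a 6.67-fold lower signal.

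The immunoproteasome and trimming genes were also lower in tumours. Psmb8 and Psmb9 encode subunits that replace constitutive ones and favour peptides that bind class I. Psmb8 signal was 4.71 to 6.45 (median 5.71) in deficient tumours and 5.14 to 8.86 (median 5.44) in wild type tumours. Marrow samples had 9.25, 9.38 and 8.80 in the deficient and 9.01 and 9.31 in the wild type group. Wild type tumour 5 passed the lowest marrow sample and no other tumour did, and the difference was -3.27 (SE 0.38, limma adjusted p = 7.268e-09), or -1.93 with the mean of both probe sets. Psmb9 signal was 4.61 to 6.24 (median 5.53) in deficient tumours and 5.02 to 8.35 (median 5.35) in wild type tumours. Values of 9.15, 9.25 and 8.62 in deficient marrow and of 8.54 and 9.62 in wild type marrow all exceeded those of the tumours. The difference was -3.30 (SE 0.35, limma adjusted p = 1.506e-09), a 9.86-fold lower signal. Erap1, on chromosome 13, encodes the aminopeptidase that trims peptides in the endoplasmic reticulum. It was at 3.67 to 5.30 (median 4.40) in deficient tumours and 3.86 to 6.001 (median 4.26) in wild type tumours. In marrow it was at 6.72, 7.27 and 6.64 in deficient and 6.56 and 7.22 in wild type samples, again with no overlap between tissues. Its difference of -2.37 (SE 0.26, limma adjusted p = 1.665e-09) was -2.38 in the second Erap1 probe set.

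Nlrc5, on chromosome 8, encodes the transactivator of class I genes, and its lower signal in tumours was called in some sets of samples and not in others. Its signal ran from 3.97 to 5.38 (median 4.62) in deficient tumours and from 3.97 to 8.91 (median 4.38) in wild type tumours. It was 5.94, 6.20 and 6.22 in deficient marrow and 5.39 and 7.59 in wild type marrow. Wild type tumour 5, at 8.91, was above all marrow samples, wild type tumour 1, at 5.87, was inside their range, and the other 22 tumours were below it. The difference was -1.45 (SE 0.47, limma adjusted p = 0.0067). Leaving out wild type marrow 2 gave -0.91 (limma adjusted p = 0.144) and leaving out wild type marrow 1 gave -2.003. In wild type samples alone it was -1.33 (SE 1.17, limma adjusted p = 0.354), and in deficient samples alone -1.58 (SE 0.24, limma adjusted p = 3.55e-06).

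All 10 members were called lower in tumours, where 42.2% of all genes were called lower at an adjusted p under 0.05 in limma. The median member difference was -2.64, against -0.10 over all genes. For 6 members every tumour lay below every marrow sample, which held for 16.9% of all genes, 3081 of 18193. The exceptions were H2-K1, Tap1 and Psmb8, each through wild type tumour 5, and Nlrc5, through wild type tumours 1 and 5. Without these 2 tumours the median member difference was -2.94 and all 10 stayed called, with Psmb9 at -3.68 and Nlrc5 at -1.90. Within the higher title series the median was -2.52, with all 10 called. Centring each array on its median moved the median of all genes to -0.39 and that of the members to -2.93, and the calls over all genes to 4711 higher and 10602 lower, against 6218 and 7681 in the RMA values. In these bulk samples fewer cells of a type and less RNA per cell cannot be told apart. White blood cell lists mostly had lower signal in tumours. T and NK cell genes were called lower for 12 of 12, B cell genes for 6 of 6 and neutrophil genes for 7 of 7. Macrophage genes were mixed: of 10, 3 were called higher in tumours and 4 lower. In the leukocyte list 10 of 10 genes were called lower, with a median of -3.21. The leukocyte list mean lay between 6.47 and 9.77 in tumours and between 10.64 and 11.04 in marrow. Tumour means of the 10 leukocyte genes ran from 4.22 for Cd37 to 9.35 for Tyrobp, and the part of leukocytes in the members' difference was not tested.

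Neighbouring steps of the pathway did not all share the direction. Over all 18193 genes, 42.2% were called lower in tumours and 6218 genes were called higher. Of 14 constitutive proteasome genes, 9 were called higher in tumours and 0 lower (median 0.37), among them Psmb3, a structural beta subunit, at 1.12, Psma3 at 0.54, Psmb6, which Psmb9 replaces, at 0.55 and Psma4 at 0.65. Of 7 other peptide supply and loading genes, 1 was called higher and 3 lower, the latter a share near that of all genes. Thop1, a cytosolic peptidase that degrades peptides, was higher by 1.48. Tapbpl, a tapasin relative that edits peptides, was at -1.35, Psme1, a subunit of the PA28 activator, at -0.73, and Psmb10, the remaining catalytic immunoproteasome subunit, at -0.85. The chaperones Calr, at -0.22, Pdia3, at -0.19, and Canx, at 0.0041, did not pass. Among 20 regulators of class I genes, 15 were called lower and 2 higher, with the interferon gamma receptor chain Ifngr1 at -2.44, Irf9 at -2.98, the interferon alpha receptor chain Ifnar2 at -2.25 and Irf8 at -3.53. Of 10 measured non-classical and class I-like genes, 7 were called lower and 2 higher, with H2-Q10 at -4.02, H2-T24 at -5.33, H2-M3 at -1.27 and H2-T3 at -0.53. All 6 class II pathway genes were called lower (median -2.67), with the class II transactivator Ciita at -1.19, H2-DMa at -2.40, the invariant chain Cd74 at -2.82 and H2-Ab1 at -2.73. Of 22 interferon-induced genes, 16 were called lower and 1 higher (median -1.54), with Usp18 at -3.56, Oasl1 at -1.80, Rsad2 at -5.04 and Igtp at -5.25. Other genes of these lists, without a probe set of 1 gene, were not analysed here.

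In tumour minus marrow, all 28 single-gene probe sets had the same sign and differed in size. The 10 members had 28 probe sets of 1 gene, 13 of them for H2-K1 and H2-D1. Of these 28, 27 were called lower in tumours, where 18358 of all 45037 probe sets were called lower. Values over the 28 ran from -3.54, in a probe set of H2-D1, to -0.14, in one of Tap1 (limma adjusted p = 0.19). H2-D1 had 9 probe sets, whose tumour means ran from 2.91 to 9.58, and its differences from -3.54 to -0.22. Most heavy chain probe sets are of a kind whose probes can also match other H2 genes, and H2 genes are highly polymorphic. Another 3 probe sets were annotated to several H2 genes and were kept apart. The one shared by H2-K1 and H2-D1 averaged 6.39 ± 0.74 in tumours (SD, n = 24) and 8.85 ± 0.31 in marrow (SD, n = 5), a difference of -2.40 (SE 0.34). The one shared with H2-Q5 was at -0.15 (limma adjusted p = 0.265) and the one shared with H2-Q2 at -0.49.

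Caspase-8 genotype did not separate the members in tumours. In limma 0 of 10 members passed an adjusted p of 0.05, and 0 had an unadjusted p under 0.05, while 0% of all 18193 genes passed and 583 had an unadjusted p under 0.05. All 10 had lower means in deficient tumours, with a median difference of -0.38 against 0.0042 over all genes. The lowest values were those of Nlrc5, at -0.62 (95% interval -1.48 to 0.24), Psmb8, at -0.58 (-1.31 to 0.15), Tap1, at -0.53 (-1.15 to 0.09), and Psmb9, at -0.50 (-1.16 to 0.17). H2-D1 was at -0.41, H2-K1 at -0.36, B2m at -0.25, Tapbp at -0.19, Tap2 at -0.18 and Erap1 at -0.09 (95% interval -0.57 to 0.39). The genotypes overlapped for every member, and the intervals did not exclude a difference of 0 for any. Limma adjusted p was 0.9997 for each. With the mean of probe sets all 10 stayed negative, with a median of -0.24, Tap1 at -0.10 and H2-D1 at -0.19. Of the 28 single-gene probe sets, 23 had a negative value, and the highest was 0.14, in one of Tap1. Interferon-induced genes had a median genotype difference of -0.20, with 0 of 22 called, and leukocyte genes one of -0.21, with 0 of 10 called. Endothelial genes had one of 0.41, with 0 of 10 called and 6 at an unadjusted p under 0.05.

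These signs rested on wild type tumours 1 and 5. Without them all 10 members had higher means in deficient tumours, from 0.09 for Tap2 to 0.37 for B2m and Erap1, with a median of 0.26. Again none passed, with a smallest unadjusted p of 0.0527 and adjusted p of 0.9996 (limma). Leaving out wild type tumour 5 alone turned B2m to 0.03, Tapbp to 0.02, Nlrc5 to 0.01 and Erap1 to 0.15, and leaving out wild type tumour 1 alone turned Erap1 to 0.05. In the lower title series, which holds wild type tumour 1, the median difference was -0.32, and in the higher series, which holds wild type tumour 5, it was -0.42, with all 10 negative in both.

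**Figure D2:**
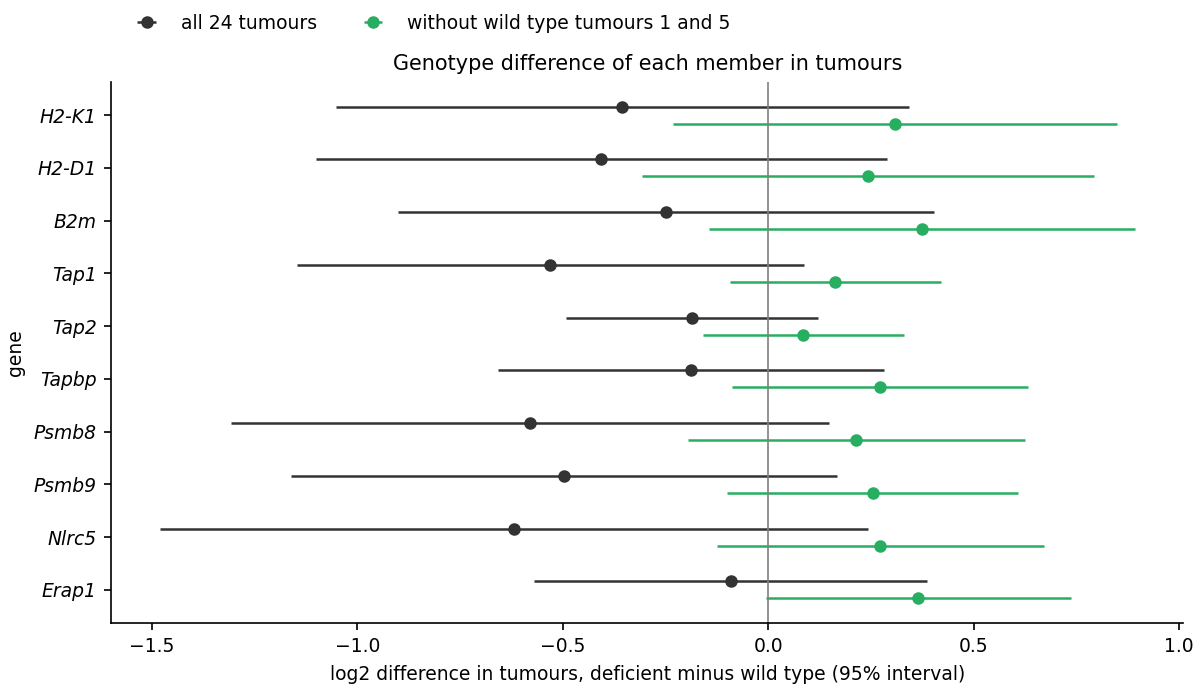
Log2 difference of each member between deficient and wild type tumours (deficient minus wild type, x axis), with 95% intervals from limma. Dark points use all 24 tumours and lie between -0.62 and -0.09. Green points leave out wild type tumours 1 and 5 and lie between 0.09 and 0.37, and intervals of both kinds include 0.

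In marrow the members did not differ by genotype beyond the spread between samples. None of the 10 was called, and 0.022% of all genes were. Those 4 genes were Xist and Y-linked genes, with Xist higher by 6.24 in deficient marrow, so genotype and sex-linked expression cannot be told apart there. Member differences ran from -0.37 (SE 0.54) for Nlrc5 to 0.30 (SE 0.18) for Tap2, with a median of -0.01, and limma adjusted p was 0.9996 for each. The 28 single-gene probe sets ran wider, from -0.48 to 0.71, both in probe sets of H2-D1 (limma adjusted p = 0.9997 for both). Of these 28, 3 had an unadjusted limma p under 0.05, against 1517 of all 45037 probe sets. Wild type marrow 1 was the lowest of the 5 marrow samples for 9 members and wild type marrow 2 the highest for 7, so the deficient samples mostly lay between the wild type ones. Leaving out either wild type sample moved the values widely: Nlrc5 was at 0.73 without wild type marrow 2 and at -1.46 without wild type marrow 1, and Tap1 at 0.55 and -0.75. The interaction of genotype and tissue subtracts this marrow difference, so genotype and sex-linked expression cannot be told apart in it either. It called 0 of 10 members and 0.319% of all genes, with member values from -0.56 (SE 0.76) for Psmb8 to -0.08 (SE 0.51) for Erap1 and a median of -0.42. Without wild type tumours 1 and 5, 0 were called, the median was 0.27 and 1 of 10 was negative. Single samples also moved it: leaving out wild type tumour 5 gave a median of -0.02, leaving out wild type tumour 1 gave -0.20, and 0 members were called in either. With wild type marrow 1 left out the median was 0.07, and the call count over all genes, 58 with every sample, was 32. Omitting wild type marrow 2 instead gave a median of -0.78 and 422 genes called, again with 0 members.

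Single tumours differed more in the members than in most genes. The SD over the 24 tumours ran from 0.35 for Tap2 to 1.01 for Nlrc5 and exceeded that of 85.2% to 99.2% of all genes. Without wild type tumours 1 and 5 it ran from 0.24 for Tap2 to 0.56 for H2-D1 and exceeded that of 67.4% to 95.8% of all genes, with Nlrc5 at 0.41, Psmb8 at 0.42 and Tap1 at 0.26. In wild type tumour 5 the member mean was 8.98, and in wild type tumour 1 it was 8.07, whereas the other 22 tumours lay between 5.79 and 7.28. Wild type tumour 5 exceeded wild type tumour 1 for 9 of 10 members, all but Tap2, at 5.49 and 6.17. Deficient tumour 9 had the lowest value of all 24 tumours for 7 members. Deficient tumour 13 was the highest of the 17 deficient tumours for 8.

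The heat map of members by tumour also shows what moved with them. Wild type tumour 1 had the highest leukocyte mean of all tumours, 9.77, with 9 of 10 leukocyte genes above the other 22 tumours. Wild type tumour 5 had a leukocyte mean of 8.42, with 5 of 10 genes above the other 22. Each gene was also set against its own median in those 22 tumours. By that measure the median sympathoadrenal gene was 0.46 lower in wild type tumour 1 and 0.04 higher in wild type tumour 5. The median endothelial gene was 1.13 lower in wild type tumour 5. Class II genes lay above the other 22 tumours for 6 of 6 genes in wild type tumour 5 and for 4 of 6 in wild type tumour 1. For T and NK cell genes these counts were 7 of 12 and 3 of 12, and for the constitutive proteasome 1 of 14 and 0 of 14. Of 22 interferon-induced genes, 13 lay above the other 22 tumours in wild type tumour 5 and 17 in wild type tumour 1, with median differences of 0.97 and 1.19 from the median of those tumours. Their mean was 6.71 in wild type tumour 5 and 5.94 in wild type tumour 1, against 4.4004 to 5.35 in the others. Within that list, and chosen after their values were seen, the chemokine Cxcl9 was at 9.66 and 5.995 and the GTPase Gbp6 at 8.46 and 5.31 in wild type tumours 5 and 1, while Ifit1 was at 4.4004 and 5.09 and Ifit3 at 4.94 and 6.08. Of 20 regulators of class I genes, 5 lay above the other 22 tumours in wild type tumour 5 and 8 in wild type tumour 1. Their median differences from the median of those tumours were 0.06 and 0.23. Within that list Irf1, an activator of class I genes, was at 9.35 in wild type tumour 5 and 7.77 in wild type tumour 1, against at most 7.12 in the others. The part of these cells and genes in the members' values was not tested.

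**Figure D3:**
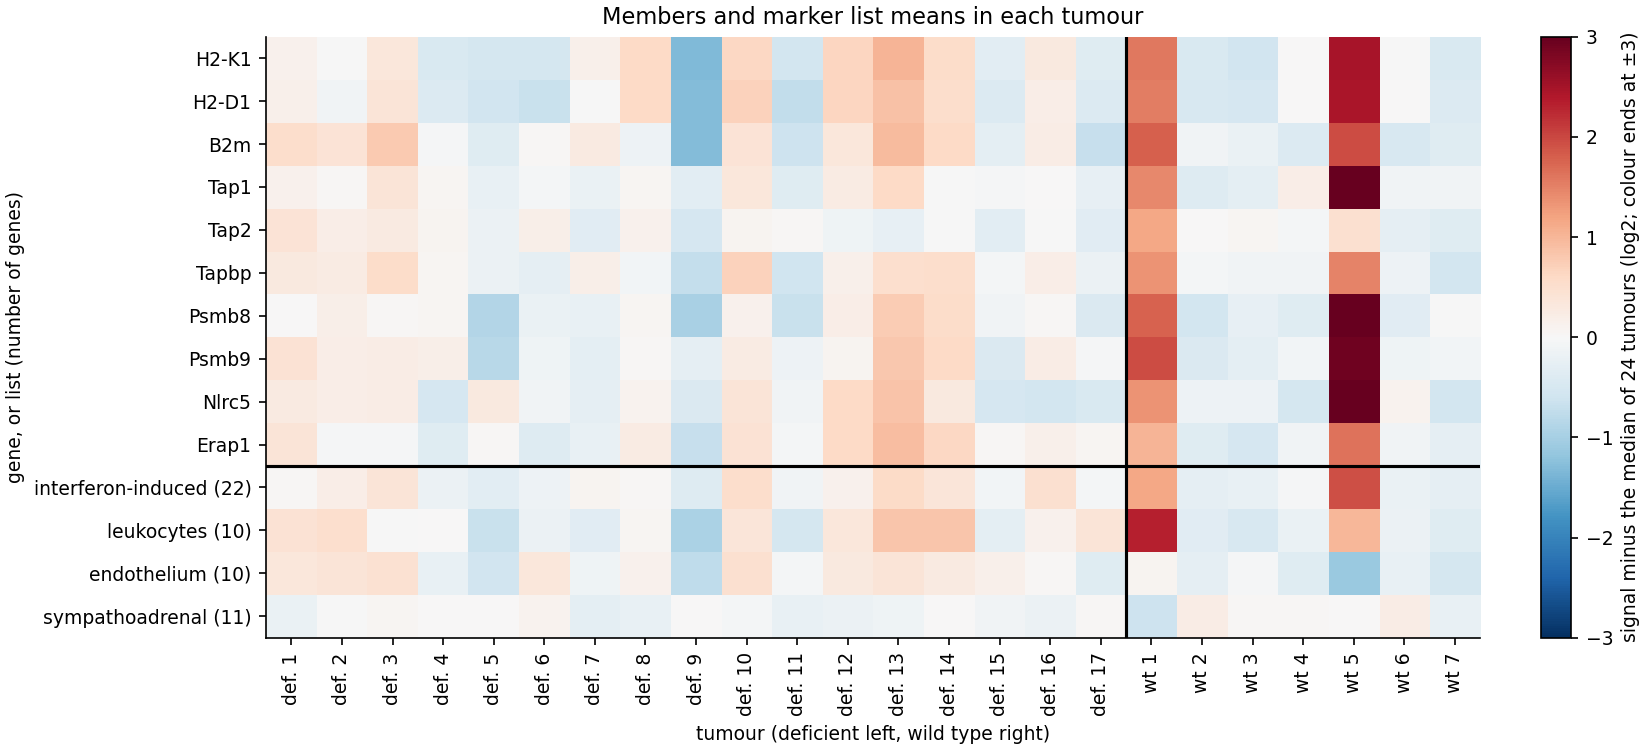
Signal of each member, and the mean of 4 marker lists, in each of the 24 tumours (columns, 17 deficient left and 7 wild type right), shown as the log2 difference from the median of the 24. Wild type tumours 1 and 5 are red in all 10 member rows, and deficient tumour 9 is blue. The leukocyte row is reddest in wild type tumour 1, at 9.77, and the endothelial row is bluest in wild type tumour 5.

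The members varied together from tumour to tumour. Over the 24 tumours all 45 member pairs were positively correlated, with Pearson's r from 0.51 to 0.996 (median 0.86). All 45 passed after Benjamini-Hochberg adjustment of two-sided permutation p-values from 100000 resamples, where 1e-05 is the smallest p they can give. Spearman's rho ran from 0.31 to 0.99, and 42 pairs passed. H2-K1 and H2-D1 gave the highest r, 0.996, and their probe sets may share transcripts. Psmb8 and Psmb9 followed at 0.96, and B2m and Tapbp were at 0.95, as were Tap1 and Psmb8. Tap2 had the weakest ties, from 0.51 with Erap1 to 0.74 with B2m.

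Without wild type tumours 1 and 5, r ran from 0.15 to 0.99 (median 0.69) and 38 of 45 pairs passed. The 7 that did not were all pairs of Tap2, with Erap1 the lowest at 0.15. Ties of Nlrc5 also weakened, to 0.31 with Tap2 and, with the other members, to between 0.44 for Psmb9 and 0.71 for Erap1. H2-K1 and Erap1 kept 0.86, B2m and Tapbp 0.89 and Psmb8 and Psmb9 0.84. When the 2 tumours farthest from the median of a pair's first gene were left out, r ran from 0.28 to 0.99. Within the lower and higher title series r ran from 0.74 to 0.99 and from 0.70 to 0.997, and in deficient tumours alone from 0.15 to 0.99, with 36 pairs passing.

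**Figure D4:**
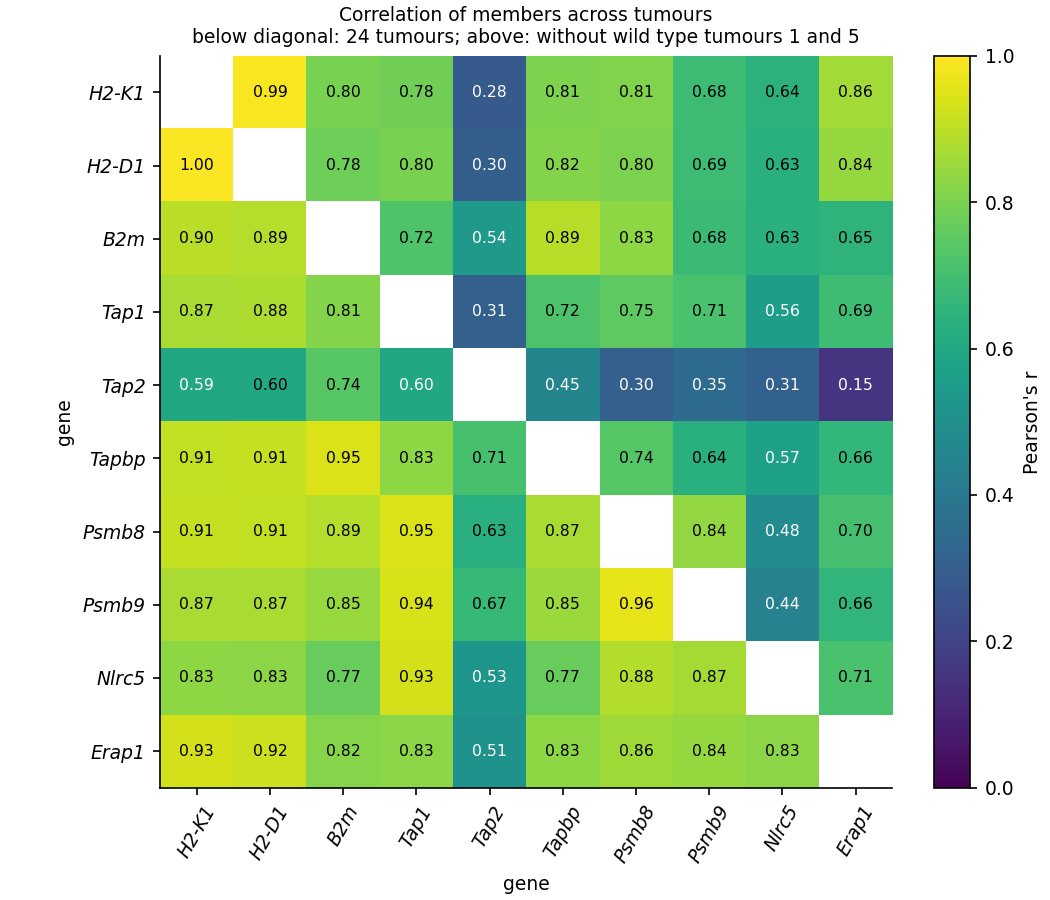
Pearson's r between members across tumours, as printed in each cell. Cells below the diagonal use all 24 tumours and cells above it leave out wild type tumours 1 and 5. The lowest values of each triangle are among those of Tap2, which lie at 0.51 to 0.74 below and 0.15 to 0.54 above the diagonal.

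Marker lists were set against the members in 40 relations, 4 lists by 10 members, with permutation p adjusted over all 40. The mean of 22 interferon-induced genes correlated with all 10 members, with Pearson's r from 0.63 for Tap2 to 0.94 for Psmb9 and Spearman's rho from 0.48 to 0.89, and the largest adjusted permutation p was 0.013, for Tap2. The mean of 10 leukocyte genes correlated with 9 members by Pearson, from 0.66 for Tap1 to 0.84 for Tapbp, while Nlrc5, at r = 0.57 (permutation p = 0.0286, adjusted p = 0.0571), did not pass. By Spearman all 10 passed, with Nlrc5 at a rho of 0.57. Without wild type tumours 1 and 5, which are also the 2 farthest from the median of both lists, r ran from 0.31 to 0.85 for interferon-induced genes and from 0.35 to 0.86 for leukocytes, and Tap2 was the member that did not pass in either. Within the lower series r ran from 0.83 to 0.98 for interferon-induced genes and from 0.83 to 0.97 for leukocytes. Within the higher series it ran from 0.78 to 0.96 and from 0.55 to 0.90. Sympathoadrenal genes gave r from -0.41 to -0.09, and 0 of 10 relations passed. They were from -0.86 to -0.62 in the 10 tumours of the lower series and from -0.11 to 0.19 in the 14 of the higher one. The lower series holds wild type tumour 1, whose sympathoadrenal mean, 8.685, was the lowest of the tumours. Without wild type tumours 1 and 5, r was -0.35 to 0.06 over both series, with 0 passing. Without the 2 tumours farthest from the sympathoadrenal median, deficient tumour 7 and wild type tumour 1, it was -0.27 to 0.06. Endothelial genes gave r from -0.27 to 0.22, with 0 passing by Pearson and 4 by Spearman, but from 0.60 to 0.82, with all 10 passing, without wild type tumours 1 and 5. Without the 2 tumours farthest from the endothelial median, deficient tumour 9 and wild type tumour 5, r was 0.38 to 0.62, and within the lower and higher series it was 0.20 to 0.49 and -0.43 to 0.07.

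**Figure D5:**
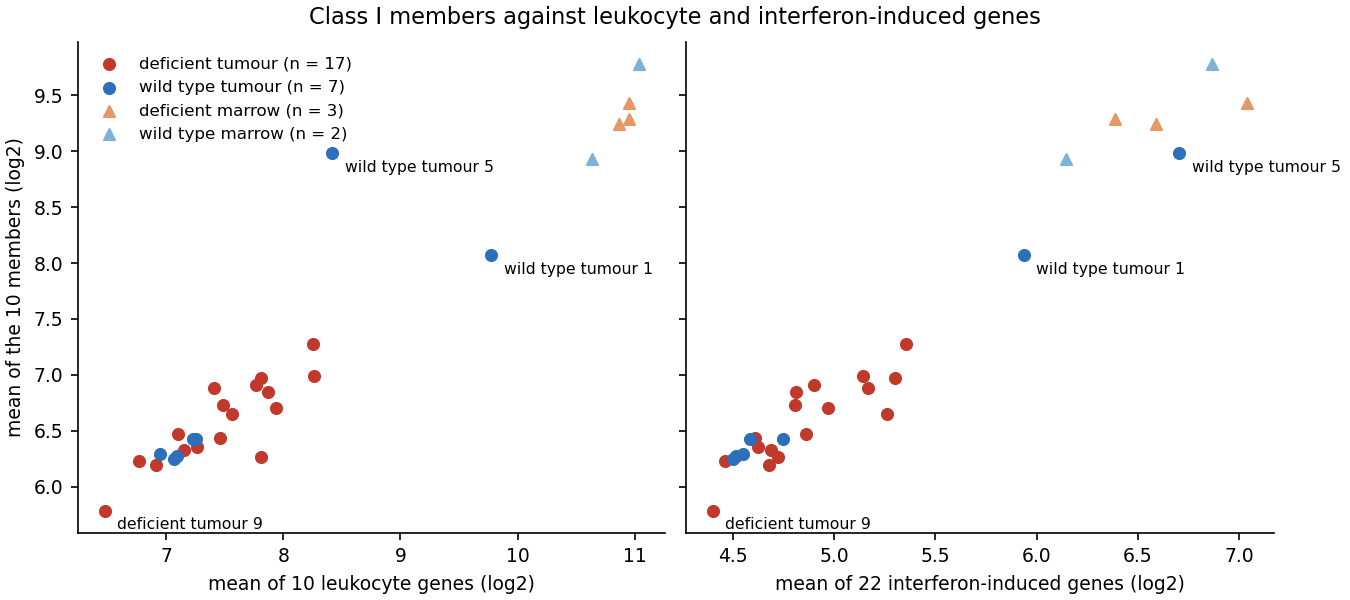
Mean log2 signal of the 10 members (y axis) against the mean of 10 leukocyte genes (left) and of 22 interferon-induced genes (right), with 1 point per sample and tumours as circles, marrow as triangles. Wild type tumour 1 has the highest leukocyte mean of the tumours, 9.77, and wild type tumour 5, at 8.42, has the highest member mean, 8.98. Deficient tumour 9 is lowest on all axes among the 24 tumours.

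Genes closest in pattern to the members were named by Pearson's r with the mean of the 10 centred members over the 24 tumours. The 8 highest were the guanylate-binding protein genes Gbp3 (r = 0.97, and 0.88 without wild type tumours 1 and 5), Gbp7 (0.97 and 0.89) and Gbp2b (0.93 and 0.82), the immunity-related GTPases Irgm2 (0.95 and 0.81) and Igtp (0.93 and 0.80), H2-DMa (0.95 and 0.81), which loads class II, the ubiquitin ligase Dtx3l (0.94 and 0.80) and Cd274 (0.93 and 0.69), which encodes PD-L1. Cd274 was at 6.93 in wild type tumour 5 and 5.98 in wild type tumour 1, against at most 4.88 in the others. For Nlrc5 alone the 3 highest were Dtx3l at 0.95, Irf1 at 0.94 and Irgm1 at 0.94, and without those 2 tumours they were at 0.83, 0.62 and 0.52. Igtp averaged 6.09 ± 1.10 in tumours (SD, n = 24) and 11.43 ± 0.21 in marrow (SD, n = 5). These genes were picked for the likeness, so the values describe it and carry no test.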

How the data were processed

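Expression was measured in 29 samples, 1 array each. Per the labels' protocols, 2 rounds of labelling started from 100 ng of RNA per array. The values as deposited are log2 signals, made by the authors with RMA in Partek 6.6 according to the submitters' processing notes. The sources used here do not say if RMA was run on all arrays at once. RMA shrinks differences at low signal. Tumour means of Tap1, Tap2, Nlrc5 and Erap1 exceeded those of only 34.9% to 40.4% of all genes. Precision is limited by the number of arrays.

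Of 45101 probe sets, 64 were controls, 34945 had 1 gene symbol in the platform annotation, 932 several and 9160 none listed. Of the probe sets with 1 gene, 34741 were named through the Entrez ID with RefSeq GRCm38.p6, and the others kept their symbol. The probe set of highest mean stood for each of 18193 genes, with no filter. Genotype and tissue labels gave the groups. Linear models were fitted to all genes with limma 3.58.1 under R 4.3.3, with moderated two-sided tests and Benjamini-Hochberg adjustment, called at 0.05. Genotype was tested within each tissue, and tissue and interaction over all 4 groups. The fits were tested on simulated data. Correlations used 100000 resamples in Python 3.11.15, and figures matplotlib 3.10.9. Alternatives concerned the choice of probe set, a mean log2 filter of 5, the normalization, weights for arrays, the variance model, added covariates and which samples entered.

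The members and lists were chosen with earlier results of these data known. The text names the 10 members, the 4 genes of smallest p in tumour minus marrow of each list described, the 8 genes closest to the member mean and the 3 closest to Nlrc5 (predicted loci passed over), Casp8, and Xist with Y-linked genes. Genes outside this rule are marked where they appear, except the chaperones, which complete a count.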

Additional observations from a re-analysis of the deposited data

Results flagged for a closer look

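Nlrc5 in wild type tumour 5, at 8.91, stood apart from the other 6 wild type tumours, which lay between 3.97 and 5.87. Its gap to the next sample was 0.614 of the group's whole range, above the critical value of 0.568 for 7 samples (Dixon's test). The other 9 members were below that value in the same 7 tumours, the nearest being Tap1 at 0.478, also through wild type tumour 5. This does not mean that no sample stood apart for them. Wild type tumours 1 and 5 were both high in every member, and 2 high samples shorten the gap that the test measures, to 0.07 for B2m. Chance flags about 1 in 20 groups, and 10 were examined. The array's 3' minus 5' control value in wild type tumour 5 was 0.487, inside the 0.447 to 0.842 of the wild type tumours.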

How the results depend on the processing

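The counts of members called, of pairs and of list relations stayed within 1.5 times of the reported ones under every alternative run. For list relations the alternatives were Spearman's rho and leaving out wild type tumours 1 and 5, and the total hides a change between lists. Endothelial relations called went from 0 to 4 by Spearman's rho and to 10 without those tumours. With 1 sample left out, members called were 9 to 10 for tumour minus marrow and 0 to 0 for genotype in tumours, in marrow and for the interaction, and pairs 44 to 45. Of 905 single member values under alternatives, 860 kept sign and call, 2 lost the call (Nlrc5 in tumour minus marrow, given above) and 43 turned sign. No value of tumour minus marrow turned sign. Depending on the samples fitted, 0 to 3 members fell under a mean log2 filter of 5, which moved the median of all genes to 0.31 and the calls to 5827 higher and 3343 lower. Calls over all genes, 58 for the interaction, were 124 after repeated quantile normalization, 13 with array weights, 19 with the filter, 93 over every probe set, and 32 to 422 with 1 sample left out. The 4 in marrow were 83 in the 4-group model, 2 with the mean of probe sets or the filter and 9 over every probe set, and the 0 in tumours was 1 over every probe set. No paired analysis was possible because the labels give the samples no shared replicate numbers.

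For tumours, deficient minus wild type, leaving out wild type tumours 1 and 5 gave H2-K1 0.31, H2-D1 0.24, B2m 0.37, Tap1 0.16, Tap2 0.086, Tapbp 0.27, Psmb8 0.21, Psmb9 0.25, Nlrc5 0.27 and Erap1 0.37, and array weights gave Erap1 0.0186. With 1 sample left out B2m ran from -0.38 to 0.0254, Tapbp from -0.33 to 0.0171, Nlrc5 from -0.82 to 0.0056 and Erap1 from -0.21 to 0.15. For marrow, deficient minus wild type, the mean of probe sets gave H2-K1 -0.10, Tap1 0.078 and Tapbp 0.23, median centring H2-D1 -0.00067, repeated quantile normalization Tapbp 0.0138, and array weights H2-D1 -0.0208, Tapbp 0.0344, Psmb8 0.0802, Psmb9 0.0354 and Erap1 0.0839. With 1 marrow sample left out H2-K1 ran from -0.39 to 0.51, H2-D1 from -0.38 to 0.44, B2m from -0.48 to 0.16, Tap1 from -0.75 to 0.55, Tapbp from -0.19 to 0.18, Psmb8 from -0.17 to 0.15, Psmb9 from -0.61 to 0.47, Nlrc5 from -1.46 to 0.73 and Erap1 from -0.34 to 0.32. The cause of these turns was not tested, and with 5 marrow arrays small differences there are not detectable.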

Other observations

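Other immune markers were not uniform between the tissues. Of 10 macrophage genes, 3 were called higher in tumours than in marrow, the complement subunits C1qa at 1.41, C1qb at 1.19 and C1qc at 1.08 (limma adjusted p = 5.557e-06, 0.0001013 and 0.0002399), and 4 were called lower, among them Cx3cr1 at -2.29 and Cd14 at -2.93. T and NK cell genes were called lower for 12 of 12, with a median of -0.99, and Cd3e, a T cell receptor chain, averaged 4.77 ± 0.13 in tumours (SD, n = 24) and 5.21 ± 0.18 in marrow (SD, n = 5). In wild type tumour 1, 4 of 6 B cell genes lay above the other 22 tumours, with Cd79b at 7.05 against at most 5.09, while Pax5, at 4.36, and Vpreb1, at 3.37, lay inside the range of those tumours. The genes of this paragraph were chosen after their values were seen.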
